A study of Homo sapiens with 32 samples.

Results

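Of the 6267 distinct nuclear N6-methyladenosine (m6A) sites that m6A-eCLIP placed in human HEK293T embryonic kidney cells, 384 stood at the same chromosome, position and strand in all 4 deposited lists, and these 384 common sites are described here. They were chosen by exact position, with mitochondrial sites left out and repeated entries counted once. Presence in every list is therefore how they were selected and not a result. The 4 lists were those of DD cells in thapsigargin (4356 nuclear sites), DD cells in DMSO (1283), WT cells in thapsigargin (1082) and WT cells in DMSO (2401). The common sites made up 8.82%, 29.9%, 35.5% and 16.0% of these lists in that order.

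All cells were HEK293T lines expressing eIF3d, a cap-binding subunit of the initiation factor eIF3. WT cells expressed the wild-type protein and DD cells a phosphomimetic form with aspartate in place of 2 serines (S528D and S529D). Cells were given 600 nM thapsigargin (Tg), which empties the calcium store of the endoplasmic reticulum (ER) and sets off the integrated stress response (ISR), or its solvent DMSO, for 16 h. Poly(A) RNA-Seq had 2 libraries for each genotype and treatment. Subunit-Seq had 2 immunoprecipitate (IP) and 2 input libraries for each treatment, from cells with HA-tagged eIF3d carrying a TEV protease site; the cap-binding part of the protein was released by TEV and its RNA sequenced. The m6A-eCLIP experiment had 2 IP and 2 input libraries for each genotype and treatment. It was used here as 1 list of positions per genotype and treatment, without score, coverage or replicate, so that neither the depth nor the strength of a site was known. The labels do not say that replicates came from separate cultures or how many clones a line held. The p-values below measure only spread between these samples. In the main Subunit-Seq fit that spread was pooled over genes of like level, in place of each gene's own.

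m6A is the most common internal modification of mRNA. It is written co-transcriptionally by a complex around METTL3, METTL14 and WTAP, removed by the demethylases FTO and ALKBH5, and read by proteins such as those of the YTH family. Known sites gather in long internal exons and near stop codons, within a short consensus around the modified adenosine. A related mark, m6Am, sits at the first transcribed adenosine next to the cap, and antibodies against m6A also bind it. Most of the common sites lay on pseudogenes, and the tables do not say which of these are processed. Processed pseudogenes are copies of mRNAs that were reverse-transcribed and inserted elsewhere in the genome. They lack introns, resemble the spliced mRNA of their parent gene and are most numerous for highly expressed genes such as those of ribosomal proteins.

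For 8 common sites the bases around them could be read, because they fell within the 250 bases before or the 50 bases after an annotated transcription start (RefSeq, GRCh38.p14). They are shown 5′ to 3′ on the strand of the site, with the 5 bases centred on the listed position in capitals, to show what base was listed and what stood beside it.
H4C5: cgcttgttttTCAGAtttttgcggc
H3-3A: cagccatcttTCAATtgtgttcgca
PSMA4: gggggccataTTAGCagcggttatt
ACTG1: gtcgccgctgCCAGCtctcgcactc
DYNLL1: ggtagcgacgGTATCtctagccggg
NUDC: gggcccggcgCGACCcgcaggagc
JAGN1: gcaaatagggTCAGTgggcc
EXOSC5: atggaggaggAGACGcata
The middle base was A in all 8. The m6A consensus is a word of 5 bases with A, G or T first, A or G second, then AC, then A, C or T. None of the 8 matched it on the strand of the site. Of all A bases in the transcribed part of the 35116 windows, 7.33% stood in such a word, and so did 13 of 260 sites in 1 list (5.0%), 2 of 46 in 2 lists and 0 of 15 in 3 lists. With 8 sites, such a share cannot be read as different from these.

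The same 8 sites lay close behind annotated starts. The H4C5 site (chromosome 6, position 26204610, + strand) was the first annotated base of its gene, which codes for histone H4. The sites of H3-3A, which codes for histone H3.3, and of PSMA4, a proteasome subunit, were both base 6, and that of ACTG1, cytoplasmic actin, was base 17. Those of DYNLL1, NUDC, JAGN1 and EXOSC5 were bases 30, 39, 43 and 44. An A at the first annotated base was the listed position of 1 of the 8 common sites in these windows, and of 3 of 15, 13 of 46 and 72 of 260 sites in 3, 2 and 1 lists. The remaining 376 common sites fell outside these windows and have no sequence here.

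Most common sites lay on pseudogenes. A site was given to every RefSeq gene whose span held it on the same strand, or whose strand the tables did not give, which was so for all pseudogenes. Of the 384 common sites, 263 (68.5%) lay in the span of a pseudogene, against 57.1% of 403 sites in 3 lists, 47.6% of 897 in 2 lists and 29.7% of 4583 in 1 list. A further 87 (22.7%) lay in a protein-coding gene on its own strand and in no pseudogene, against 31.3%, 39.2% and 54.4% in 3, 2 and 1 lists. The pseudogene share thus became larger with each added list and the coding share smaller.

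**Figure D1:**
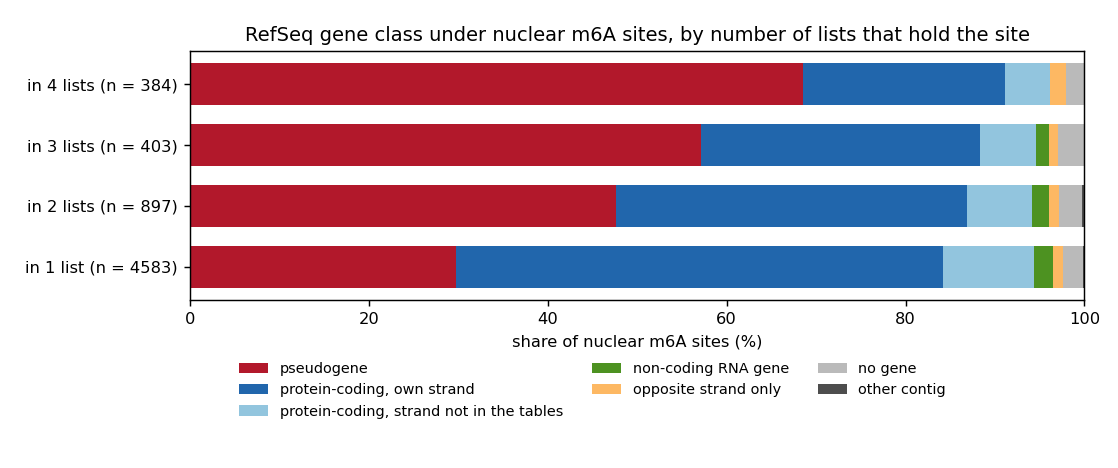
Share of nuclear m6A sites (%, x axis) by the class of RefSeq gene under the site, for sites in 4, 3, 2 and 1 of the 4 lists (bars from top to bottom; n beside each bar). Pseudogenes, in red, take 68.5% of the common sites and 29.7% of the sites in 1 list.

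Of the other common sites, 19 lay in coding genes of unknown strand, 7 were opposite to a gene and in no other, 8 lay in no annotated gene and 0 in a non-coding RNA gene alone or a microRNA hairpin. The class shares were also counted in each list as a whole. Pseudogenes took 36.8% of the DD Tg list, 52.3% of DD DMSO, 51.8% of WT Tg and 46.9% of WT DMSO. All 4 lists were thus below the 68.5% of their common part. The share was lowest in the longest list, DD Tg, next lowest in the second longest, WT DMSO, and similar in the shorter DD DMSO and WT Tg lists. The part of list length in this was not tested.

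Sites just outside the selection numbered 403, each in exactly 3 lists. WT Tg, the shortest list, was the one missing for 209 of them, DD DMSO for 126, WT DMSO for 43 and DD Tg for 25. Allowing the position to differ by up to 2 or 10 bases raised the number of common sites to 416 or 427, and ignoring strand left 384. The common sites stood on both strands about equally (196 on + and 188 on −), and 381 of them were 1 base wide. On the chromosomes they numbered from 34 on chromosome 1 to 2 each on chromosomes 21 and 22.

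Some common sites were neighbours. Of the 384, 102 had another common site within 100 bases, in 48 clusters of up to 4 sites. Spacing was not counted for sites in fewer lists, so it is not known to be particular to the common sites. Of the 332 genes that carried a common site, 232 carried 1, 79 carried 2, 19 carried 3 and 2 carried 4. The genes with 4 were both ribosomal protein pseudogenes. One of them, RPL4P4, a copy of the large-subunit gene RPL4, held sites at positions 185417988, 185418478, 185418624 and 185418761 on the − strand of chromosome 3, in a span opposite to MAP3K13. Neighbouring sites may share an RNA and are not taken as independent observations.

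The 263 pseudogene sites fell in 190 pseudogenes, and the name of the pseudogene gave a protein-coding parent for 234 of the sites. These parents were 121 genes, of which 49 code for cytosolic ribosomal proteins. Copies of ribosomal protein genes held 134 common sites (34.9%), against 13.2%, 8.58% and 9.49% of the sites in 3, 2 and 1 lists. The step between sites in 3 lists and common sites was thus larger for these copies than the steps before it. RPS6, a small-subunit protein phosphorylated by S6 kinases, had the most copies with a common site, 6 copies with 11 sites. RPS18 followed with 7 sites on 4 copies and RPS19 with 7 sites on 3. RPL36, RPS14 and RPS20 each had 5 sites on 3 copies. In all, 32 parents had a common site on at least 2 different copies.

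Most parent genes held no common site themselves. Of the 121 parents, 15 had one in their own span, while 89 had a site of some list there. Of the 9627 genes tested in RNA-Seq, 198 carried a common site, a smaller share than among the parents. RPS6 held 36 sites of at least 1 list and RPS19 held 35, but neither held a common one. RPL36 held 43, of which 2 were common, at positions 5691647 and 5691656 on the + strand of chromosome 19. Outside ribosomal proteins, copies with 3 common sites included XRCC6P2, a copy of the DNA end-binding protein gene XRCC6, LDHBP2 (lactate dehydrogenase B), YWHAEP5 (a 14-3-3 protein) and NACA3P, a pseudogene of the nascent polypeptide-associated complex family.

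Some pseudogenes lay inside other genes. The 3 sites that counted for GCDH, a mitochondrial dehydrogenase, were all within RPS6P25, and the 3 that counted for PCOLCE2, an enhancer of collagen processing, were all within RPL8P3. The site of ATF4P3, a copy of the ISR transcription factor gene ATF4, lay within RNF157, and that of HNRNPCP2, a copy of the m6A reader gene HNRNPC, within AKAP19. Which RNA carried the modification cannot be told apart from position alone in such cases. The same limit holds for pseudogene sites at large. Copies resemble their parents, and the sources used here do not say how m6A-eCLIP reads that match both were placed. A site in a pseudogene span is therefore not known to lie on pseudogene RNA. Along the pseudogenes, whose median length was 733 bases, 80, 79, 64 and 40 of the 263 sites lay in 4 equal stretches of the span, read 5′ to 3′ along the strand of the site. The stretch nearest the 3′ end thus held the fewest.

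Among the 87 sites in coding genes on their own strand, 38 (43.7%) lay in the last 20% of the gene span, against 43.7%, 40.9% and 43.6% of such sites in 3, 2 and 1 lists. The first 20% held 12 (13.8%), against 25.4%, 25.6% and 23.5%. Common sites in coding genes were thus as often near the 3′ end as other sites, while fewer of them were near the start. Exons, introns and UTRs were not annotated here.

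RNA levels were compared next, to see how strongly the RNAs under the common sites were present. Levels are RPKM, read counts scaled by gene length and library size, averaged over the 8 RNA-Seq libraries. Of the 190 pseudogenes, 141 were in the expression tables. Their median was 4.54 RPKM, 42 were below 1 RPKM and 16 stood at 0 in all 8 libraries. The 90 measured coding genes with a common site had a median of 24.1 RPKM and 5 below 1. The 121 parents of the pseudogenes had a median of 153 RPKM. Of these, 96 reached 31.7 RPKM, the level of the highest 10% of the 9627 genes tested, whose median was 3.50.

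Copies were thus mostly low and parents mostly high. In 118 of 128 pairs of copy and parent, the copy was below its parent. The median copy stood at 4.66% of its parent's level, and 40 copies were under 1%. RPS6P25, with 3 common sites, averaged 2.25 RPKM, against 2088 for RPS6. RPL8P3, also with 3, averaged 51.7 RPKM, against 2348 for RPL8. Copies share most of their sequence with the parent, and the sources used here do not say how reads that match both were assigned. Levels of pseudogenes, and of parents that may share reads with them, are therefore uncertain.

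**Figure D2:**
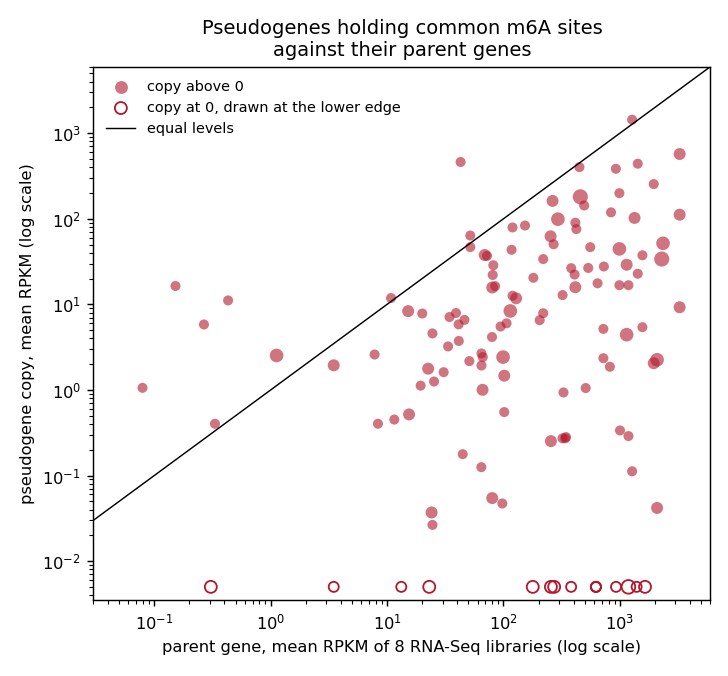
Mean RPKM over 8 RNA-Seq libraries of 128 pseudogenes holding common sites (y axis, log scale) against that of their parent genes (x axis, log scale); 1 point per pseudogene, larger with more common sites, open circles for pseudogenes at 0. Of the points, 118 lie below the line of equal levels.

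In 10 pairs the copy was above the parent. RPS23P8 averaged 461 RPKM, against 42.8 for RPS23, and RPL13P12 averaged 1436 RPKM, against 1274 for RPL13. KRTCAP2P1, a copy of a gene for an oligosaccharyltransferase subunit, averaged 16.4 RPKM, against 0.152 for KRTCAP2. CDC42P6 averaged 5.82 RPKM, against 0.267 for CDC42. In 5 of the 10 pairs, these last 2 among them, the parent was below 1 RPKM.

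No reads at all were counted for some pseudogenes with common sites. The 16 at 0 in RNA-Seq held 24 common sites, and 11 of them, with 16 sites, were also at 0 in all 8 Subunit-Seq libraries. These 11 included CHCHD3P1, a copy of a mitochondrial cristae protein gene, ENO1P1, a copy of the glycolytic enzyme gene ENO1, RPS21P4 and RPS24P6, each with 2 common sites. RPL38P2, RPL38P3 and RPL38P4 held 1 each. RPL36P3 held 3 and was at 0 in every library except input Tg replicate 2, with 0.261 RPKM. A count of 0 allows up to 3 reads, in RNA-Seq libraries of 4508228 to 10162095 reads. Of their parents, ALDOA and EEF1D, the parents of ALDOAP1 and EEF1DP5, were low, with means of 0.306 and 3.48 RPKM. Others were high, with means of 178 RPKM for ENO1, 273 for RPS24 and 623 for RPL38.

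Replicates of 1 group often lay far apart on the pseudogenes. RPL4P4 had 108 and 247 RPKM in DD Tg, 109 and 303 in DD DMSO, 85.2 and 334 in WT Tg and 70.3 and 189.7 in WT DMSO. Replicate 2 was the higher of the pair in every group, and the groups overlapped. RPS20P14, a copy of RPS20, had 67.5 and 4.64 RPKM in DD Tg, 80.3 and 7.13 in DD DMSO, 81.2 and 2.14 in WT Tg and 105 and 7.39 in WT DMSO. The gap between replicates was more than 10-fold in each of its groups, while the 4 groups overlapped.

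XRCC6P2 had 3.83 and 12.3 RPKM in DD Tg, 3.29 and 11.7 in DD DMSO, 2.82 and 12.7 in WT Tg and 3.18 and 17.2 in WT DMSO. Replicate 2 was higher in each group. RPL31P4, a copy of RPL31, had 127 and 70.2 RPKM in DD Tg, 145 and 87.4 in DD DMSO, 108 and 58.6 in WT Tg and 90.7 and 105 in WT DMSO. Its groups overlapped and the order of the replicates changed between them. RPL8P3 had 31.4 and 27.1 RPKM in DD Tg, 21.6 and 136 in DD DMSO, 18.3 and 90.7 in WT Tg and 24.2 and 64.1 in WT DMSO. Its replicates were close in DD Tg and far apart elsewhere.

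**Figure D3:**
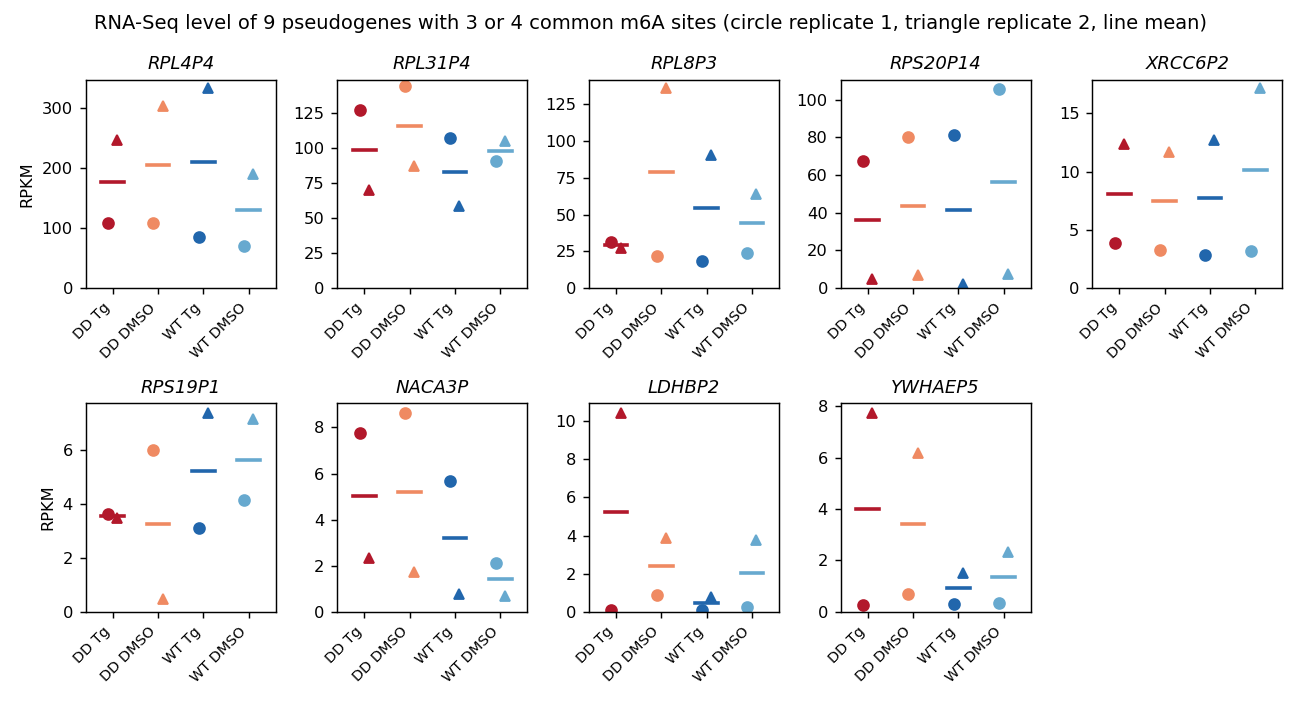
RPKM (y axis) in each RNA-Seq library of 9 pseudogenes with 3 or 4 common sites, by group (x axis; DD Tg, DD DMSO, WT Tg, WT DMSO); circles are replicate 1, triangles replicate 2 and lines the mean. Within most panels the 2 replicates of a group lie farther apart than the group means.

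The remaining 4 of these pseudogenes were low. NACA3P ranged from 0.685 to 8.65 RPKM over the 8 libraries, RPS19P1 from 0.473 to 7.38, LDHBP2 from 0.0979 to 10.4 and YWHAEP5 from 0.257 to 7.74. Among pseudogenes with a common site that passed the filter of 1 RPKM, the replicates differed by over 4-fold in 31.3% in DD Tg, 40.4% in DD DMSO, 35.4% in WT Tg and 37.4% in WT DMSO. Among all 9627 genes tested these shares were 6.18%, 6.51%, 7.72% and 6.15%. Replicates thus lay far apart more often on these pseudogenes than on genes at large in each group.

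In RNA-Seq, no gene with a common site passed the test for a change with Tg or with the DD form of eIF3d. Differences were tested with limma on log2(RPKM + 1), with Benjamini-Hochberg adjustment over all 9627 genes. Of the 332 genes with a common site, 198 passed the filter of a mean of 1 RPKM. For Tg against DMSO in DD cells, 0 of the 198 and 0 of 114 parents passed, against 0.0% of all genes, where 25 had an unadjusted p under 0.05. For Tg against DMSO in WT cells it was again 0 and 0, against 0.0% of all genes (24 at an unadjusted p under 0.05). DD against WT gave 0 and 0 in Tg, against 0.0% of all genes (82), and in DMSO 0 and 0, against 0.0% (68). The interaction, the difference of the Tg effect in DD cells from that in WT cells, gave 0 and 0, against 0.0% (21). In every contrast, genes at an unadjusted p under 0.05 were far fewer than a share of 0.05 of all 9627. That share would be reached on average without any change. The fit without a block was thus over-cautious, for a reason that was not tested. Its calls of 0 cannot tell a lack of change from a missed change. With the replicate number as a block, 0 of the 198 still passed in each contrast. In such bulk RNA, fewer cells of a type and less RNA per cell cannot be told apart.

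Medians on the log2 scale describe the sets. For Tg against DMSO in DD cells the 198 genes had a median of −0.26, against 0.02 for all genes, and the parents −0.41. Within replicate 1 the parents lay 0.19 above the median of all genes and within replicate 2 at −1.21 relative to it. DD Tg replicate 2, the library with the largest share of mitochondrial ribosomal RNA (57.3% of its reads, against 25.4% to 49.8% in the others), belongs to that second pair. For Tg against DMSO in WT cells the median was 0.06, against 0.12 for all genes, with parents at −0.09. For DD against WT the medians were −0.08 in Tg, against 0.05 for all genes, and 0.20 in DMSO, against 0.13.

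The m6A machinery was looked at for common sites and levels. None of 9 writers, 2 erasers and 11 readers held a common site, and 1 reader, HNRNPC, had one on a copy. METTL3, the catalytic subunit of the writer, had 3.22 and 2.73 RPKM in DD Tg, 2.30 and 4.02 in DD DMSO, 2.36 and 2.54 in WT Tg and 2.37 and 1.62 in WT DMSO. METTL14, its partner, ranged from 0.356 to 2.34 RPKM, WTAP from 3.70 to 9.43, FTO from 0.145 to 0.781 and ALKBH5 from 3.55 to 6.95. METTL3 was higher in DD Tg than in WT Tg without overlap, and the other pairs of groups compared overlapped. Groups of 2 values often fail to overlap without any change, and the share of all genes that did so is not given here. The METTL3 values are therefore not read as a change. Of the writers, erasers and readers 0 passed in any of the 5 RNA-Seq contrasts.

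Of 13 eIF3 subunits, 0 held a common site, while EIF3E had 2 on the copy EIF3EP1 and EIF3F had 1 on EIF3FP3. EIF3D itself had 64.3 and 29.2 RPKM in DD Tg, 37.5 and 76.6 in DD DMSO, 44.2 and 91.2 in WT Tg and 68.3 and 69.6 in WT DMSO. Its groups overlapped in every contrast, and the values cannot tell the introduced coding sequence from the native one. Of 15 ER chaperones, 0 held a common site, although 9 held a site of some list.

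Among 20 ISR genes, 3 were counted with a common site, JUN, GDF15 and EIF2AK1, and ATF4 had one on ATF4P3. The JUN site was at position 58783142 on the − strand of chromosome 1, and that of GDF15, a stress-induced secreted cytokine, at 18388973 on the + strand of chromosome 19. The site counted for EIF2AK1, which codes for the eIF2 kinase HRI, was at 6023651 on the + strand of chromosome 7 and also lay in AIMP2 on the strand of that gene. The tables gave no strand for EIF2AK1, so the site cannot be placed on 1 of the 2 genes. JUN, part of the transcription factor AP-1, had 12.3 and 25.2 RPKM in DD Tg, 12.3 and 13.9 in DD DMSO, 20.1 and 40.1 in WT Tg and 14.5 and 17.7 in WT DMSO. GDF15 had 5.94 and 1.31 RPKM in DD Tg, 5.24 and 8.80 in DD DMSO, 4.33 and 12.5 in WT Tg and 10.3 and 27.1 in WT DMSO. JUN was higher in WT Tg than in WT DMSO and lower in DD DMSO than in WT DMSO without overlap, and GDF15 lower in DD DMSO than in WT DMSO. The other pairs of groups compared overlapped, and neither gene passed in any contrast. As for METTL3, a lack of overlap between groups of 2 values is not read as a change.

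Subunit-Seq asked whether RNAs with common sites were recovered with the cap-binding part of eIF3d. Among 9803 genes that passed a filter of 1 RPKM over the inputs, the fit with a replicate block called 14.6% higher and 1.62% lower in IP than in input under Tg, and 21.4% higher and 1.75% lower under DMSO. Of 193 genes with a common site, 16 were called higher and 8 lower in Tg, and 19 higher and 13 lower in DMSO. The median log2 difference over these genes was 0.32 in Tg and 0.21 in DMSO, against 0.88 and 0.96 for all genes. The median of genes with a common site was thus below that of genes at large in both treatments. RNA level moved with this. Among genes in the highest 10% of input level, 38 coding genes with a common site had medians of −0.36 in Tg and −0.43 in DMSO, close to the −0.32 and −0.37 of all 981 genes there. The 23 pseudogenes there had medians of −0.59 and −0.94. Of the calls, 10 of those higher and 8 of those lower were shared by Tg and DMSO. The difference between Tg and DMSO was itself tested: 0 of 193 and 0 of 115 parents passed, against 0.0612% of all genes, with 3 of the 193 at an unadjusted p under 0.05 in limma. Input Tg against input DMSO gave 0 of 193, against 0.051% of all genes, with 8 at an unadjusted p under 0.05.

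The counts of calls rested on single libraries. In Tg the 24 calls became 2 without input Tg replicate 1, 7 without input Tg replicate 2, 10 without IP Tg replicate 1 and 5 without IP Tg replicate 2. In DMSO the 32 calls became 0 without input DMSO replicate 2, 5 without IP DMSO replicate 2, 50 without input DMSO replicate 1 and 14 to 19 without any 1 of the others. Without the replicate block, 1 of the 193 passed in Tg and 0 in DMSO, against 24 higher and 12 lower of all genes in Tg and 21 higher and 3 lower in DMSO. Of the calls followed for single genes below, that of H4C5 in Tg was kept and the others were lost without the block. The number of genes reaching 1 RPKM was 6395 in input DMSO replicate 2, against 8503 to 13799 in the other Subunit-Seq libraries. With each library centred on its own median, 3 were higher and 14 lower in Tg and 0 higher and 20 lower in DMSO, and of all genes called 30.4% were higher in Tg and 17.5% in DMSO, in place of 90.0% and 92.4%. Single differences below are to be set against the medians of all genes, 0.88 in Tg and 0.96 in DMSO.

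**Figure D4:**
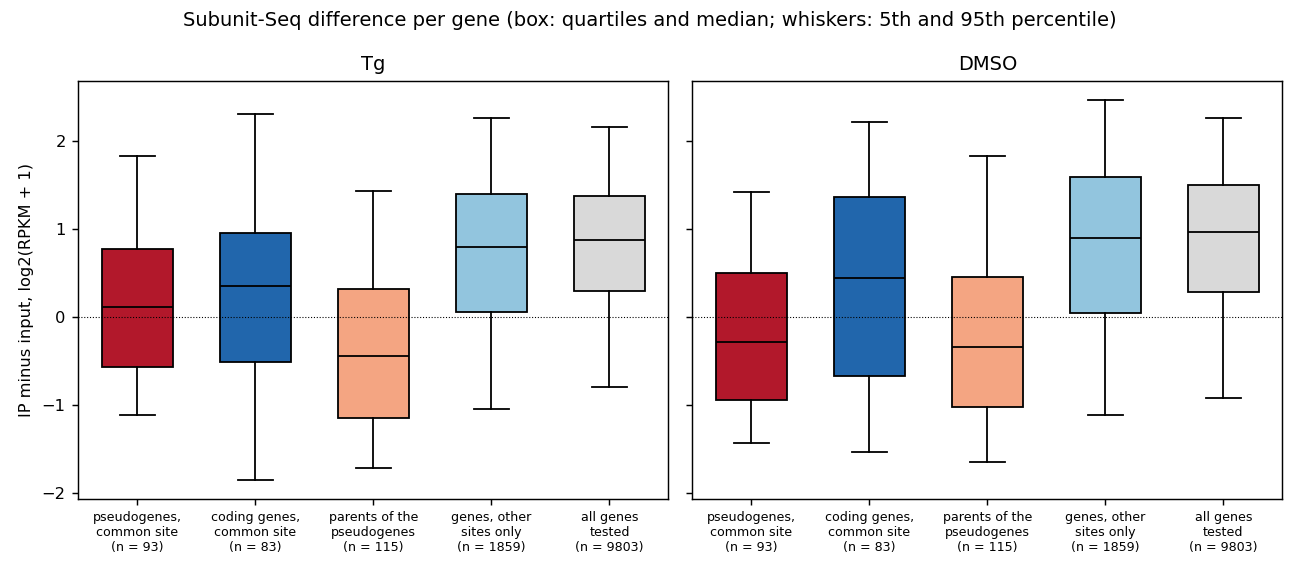
Difference of IP minus input on the log2(RPKM + 1) scale (y axis) for 5 sets of genes (x axis) in Tg (left) and DMSO (right); boxes are quartiles with the median, and whiskers the 5th and 95th percentiles. Parents of the pseudogenes have medians of −0.44 in Tg and −0.34 in DMSO, below those of all genes, 0.88 and 0.96.

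By kind of gene, the 83 tested coding genes with a common site had a median of 0.35 in Tg and 0.44 in DMSO, with 8 higher and 7 lower in Tg and 14 higher and 8 lower in DMSO. The 93 tested pseudogenes had medians of 0.11 and −0.28, with 6 higher and 1 lower in Tg and 2 higher and 5 lower in DMSO. The 115 tested parents had medians of −0.44 and −0.34, with 3 higher and 27 lower in Tg and 10 higher and 27 lower in DMSO. The 1859 tested genes that held only other sites had medians of 0.79 and 0.90, close to those of all genes.

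Replicates gave the same sign for the parents relative to all genes, −1.35 and −1.24 in replicates 1 and 2 of Tg and −0.67 and −2.18 in those of DMSO. RNA level moved with this result. Of the 981 genes in the highest 10% of input level (38.9 RPKM or more), 104 were called lower in Tg and 127 in DMSO, with medians of −0.32 and −0.37. The 94 parents in that 10% had medians of −0.67 and −0.58 and included 27 of the lower calls in each treatment. The part of RNA level in the low IP values of the parents was not tested further. Without input Tg replicate 1, 0 parents passed in Tg, and without input Tg replicate 2, IP Tg replicate 1 or IP Tg replicate 2, 2, 10 and 16 did. Without input DMSO replicate 2, 0 passed in DMSO, and without IP DMSO replicate 2, input Tg replicate 1 or input Tg replicate 2, 4, 20 and 18 did. Without input DMSO replicate 1 the balance of the parents' calls in DMSO turned, to 23 higher and 6 lower.

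Ribosomal protein genes made up most of the lower calls. Of 48 tested ribosomal protein parents, 23 were lower and 0 higher in IP in each treatment, with medians of −1.13 in Tg and −1.02 in DMSO. Of the 67 other parents, 4 were lower in each treatment, and 3 were higher in Tg and 10 in DMSO. RPL28, a large-subunit protein, had 168 and 196 RPKM in IP Tg against 659 and 588 in input Tg, with 239 and 215 in IP DMSO against 754 and 858 in input DMSO. IP was below input in each pair, with differences of −1.77 ± 0.51 (SE; limma, adjusted p = 0.00835) in Tg and −1.82 ± 0.51 (adjusted p = 0.00623) in DMSO. The RPL28 call in DMSO was lost without IP DMSO replicate 2 or input DMSO replicate 2. Its call in Tg was lost without input Tg replicate 1, among other settings. RPS6, the parent with most copies, had 1661 and 1935 RPKM in IP Tg against 2021 and 3082 in input Tg, with 2679 and 1863 in IP DMSO against 2511 and 3095 in input DMSO. IP lay below input in Tg and overlapped it in DMSO, and the differences of −0.48 ± 0.35 and −0.32 ± 0.35 did not pass (limma, adjusted p = 0.306 and 0.484).

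GAPDH, a glycolytic enzyme gene that is both a parent and a carrier of 1 common site on its own strand, had 261 and 121 RPKM in IP Tg against 591 and 943 in input Tg, with 133 and 335 in IP DMSO against 833 and 631 in input DMSO. The 2 IP values lay below the 2 input values in both treatments. The differences were −2.06 ± 0.51 in Tg (adjusted p = 0.00163) and −1.77 ± 0.51 in DMSO (adjusted p = 0.00801). Among parents that were higher in IP, HNRNPU, which codes for a nuclear scaffold RNA-binding protein, differed by 2.00 ± 0.67 in Tg (adjusted p = 0.026) and 2.37 ± 0.67 in DMSO (adjusted p = 0.00684). PARP1, which codes for a poly(ADP-ribose) polymerase, differed by 1.60 ± 0.65 in Tg, which did not pass (adjusted p = 0.0685), and by 2.48 ± 0.65 in DMSO (adjusted p = 0.00367). RBM39, a splicing factor gene, differed by 1.88 ± 0.66 and 1.84 ± 0.66 (adjusted p = 0.034 and 0.0314). With libraries centred, the calls of HNRNPU and RBM39 in both treatments and of PARP1 in DMSO were lost. The RBM39 call in DMSO was also lost without input DMSO replicate 2. The HNRNPU and RBM39 calls in Tg were also lost without any 1 of the 4 Tg libraries, that of RBM39 also without either IP DMSO library, and the HNRNPU and PARP1 calls in DMSO without IP DMSO replicate 2 or input DMSO replicate 2. The GAPDH call was lost in Tg without IP Tg replicate 2 or either input Tg library, and in DMSO without IP DMSO replicate 1 or either input DMSO library.

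The lowest differences of IP minus input in Tg among the 193 genes were those of 3 histone genes. H4C5, H4C8 and H2BC7 are replication-dependent histone genes, whose mRNAs normally end in a stem-loop instead of a poly(A) tail. Histone genes exist as many similar copies, so that reads may be shared between them. H4C5 had 1.75 and 0 RPKM in IP Tg against 228 and 12.3 in input Tg, with 2.49 and 1.68 in IP DMSO against 41.4 and 15.2 in input DMSO. Both IP values were far below both inputs in each treatment, and the inputs under Tg differed from each other by over 10-fold. The difference was −5.05 ± 0.65 in Tg (adjusted p = 5.35e-12) and −3.10 ± 0.65 in DMSO (adjusted p = 0.000229). These SEs rest on the spread pooled over genes, so the gap between the H4C5 inputs does not enter them as such. The Tg call held when each library was left out in turn, and the DMSO call was lost without IP DMSO replicate 1 or input DMSO replicate 2.

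H4C8, another histone H4 gene, had 0.713 and 0.877 RPKM in IP Tg against 68.6 and 5.77 in input Tg, with 0.813 and 0.281 in IP DMSO against 15.4 and 5.54 in input DMSO. IP was below input in both treatments without overlap, by −3.60 ± 0.62 in Tg (adjusted p = 9.74e-07) and −2.76 ± 0.62 in DMSO (adjusted p = 0.00067). H2BC7, a histone H2B gene, had 0.397 and 0 RPKM in IP Tg against 35.1 and 1.95 in input Tg, with 0.387 and 2.59 in IP DMSO against 8.43 and 3.61 in input DMSO. IP again lay below input without overlap in both treatments, by −3.12 ± 0.60 (adjusted p = 2.28e-05) in Tg and −1.56 ± 0.60 (adjusted p = 0.0451) in DMSO. The Tg calls of both genes were lost without IP Tg replicate 1 or input Tg replicate 1, and the DMSO call of H4C8 without IP DMSO replicate 1 or either input DMSO library. The DMSO call of H2BC7 was lost without input DMSO replicate 2, among other settings. H3-3A, a replication-independent histone gene that makes polyadenylated mRNA, averaged 108 ± 11.8 RPKM in IP Tg against 66.7 ± 8.81 in input Tg, and 149.5 ± 2.60 in IP DMSO against 138 ± 24.2 in input DMSO (SD, n = 2 each). Single values of IP were above input in Tg and overlapped it in DMSO, and the differences of 0.69 ± 0.61 and 0.13 ± 0.61 did not pass (limma, adjusted p = 0.394 and 0.887).

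**Figure D5:**
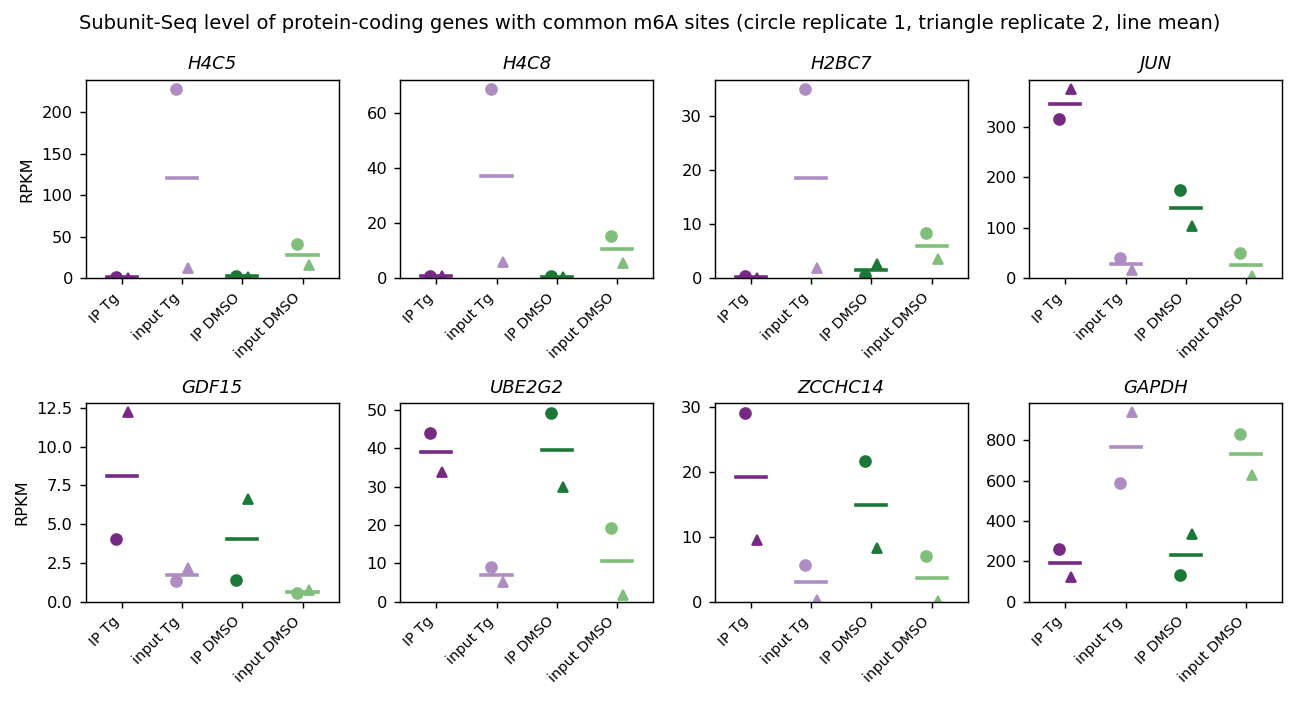
RPKM (y axis) in each Subunit-Seq library of 8 protein-coding genes with a common site, by group (x axis; IP Tg, input Tg, IP DMSO, input DMSO); circles are replicate 1, triangles replicate 2 and lines the mean. IP lies below input for the 3 histone genes and GAPDH, and above it for JUN in both treatments.

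JUN had the highest difference of IP minus input among the 193 genes in both treatments. It had 314 and 374 RPKM in IP Tg against 40.4 and 15.5 in input Tg, with 174 and 102 in IP DMSO against 49.5 and 3.87 in input DMSO. All 4 IP values were above all 4 inputs. The difference was 3.72 ± 0.64 in Tg (adjusted p = 9.16e-07) and 3.10 ± 0.64 in DMSO (adjusted p = 0.00016), against medians of 0.88 and 0.96 for all genes. The Tg call was lost without IP Tg replicate 2, and the DMSO call without IP DMSO replicate 2, without input DMSO replicate 2 and with libraries centred. GDF15 had 4.04 and 12.2 RPKM in IP Tg against 1.31 and 2.19 in input Tg, with 1.42 and 6.62 in IP DMSO against 0.530 and 0.754 in input DMSO. IP was above input without overlap in each treatment, but the differences of 1.59 ± 0.60 in Tg and 1.39 ± 0.60 in DMSO did not pass (adjusted p = 0.0512 and 0.0706).

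ATF4, whose copy ATF4P3 carries a common site, differed by 1.41 ± 0.46 in Tg (adjusted p = 0.0249) and 1.82 ± 0.46 in DMSO (adjusted p = 0.00284). ATF4P3 itself differed by 2.29 ± 0.67 (adjusted p = 0.0104) and 1.91 ± 0.67 (adjusted p = 0.0278). Both ATF4 calls were lost with libraries centred. In Tg the ATF4 call was also lost without IP Tg replicate 2 or input Tg replicate 1, and in DMSO without input DMSO replicate 2. The ATF4P3 call in Tg was lost without IP Tg replicate 2. In DMSO it was lost without IP DMSO replicate 2 or input DMSO replicate 2 and with libraries centred. Since the copy lies in RNF157 and resembles ATF4, reads of these genes are uncertain. EIF2AK1 differed by 1.39 ± 0.67 and 1.53 ± 0.67, neither of which passed (adjusted p = 0.122 and 0.0716). Of all 20 ISR genes, 17 were tested, 5 were higher and 0 lower in Tg, and 8 were higher and 0 lower in DMSO. Of the 15 ER chaperones, 6 were higher in Tg and 11 in DMSO. Of all genes, 14.6% were higher in Tg and 21.4% in DMSO. With libraries centred, 1 ISR gene was higher in Tg and 0 in DMSO, and 0 ER chaperones in Tg and 1 in DMSO.

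Other coding genes with common sites that were higher in IP included UBE2G2, an E2 ubiquitin-conjugating enzyme of ER-associated degradation with 2 common sites, at positions 44771260 and 44771342 on the − strand of chromosome 21. UBE2G2 had 44.0 and 33.9 RPKM in IP Tg against 9.05 and 5.13 in input Tg, with 49.3 and 29.9 in IP DMSO against 19.3 and 1.70 in input DMSO. All IP values were above all inputs, with differences of 2.34 ± 0.67 in Tg (adjusted p = 0.00863) and 2.41 ± 0.67 in DMSO (adjusted p = 0.00616). The DMSO call was lost without IP DMSO replicate 2 or input DMSO replicate 2 and with libraries centred. The Tg call of UBE2G2 was lost without IP Tg replicate 2, among other settings. ZCCHC14, a zinc-knuckle protein gene, had 29.0 and 9.41 RPKM in IP Tg against 5.67 and 0.281 in input Tg, with 21.6 and 8.20 in IP DMSO against 7.06 and 0.185 in input DMSO. IP lay above input without overlap, by 2.60 ± 0.64 (adjusted p = 0.00162) in Tg and 2.22 ± 0.64 (adjusted p = 0.00821) in DMSO. Its Tg call was lost without any 1 of the 4 Tg libraries. Its DMSO call was lost without IP DMSO replicate 2 or input DMSO replicate 2 and with libraries centred.

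Among the pseudogenes, HSP90AA2P, a copy of the cytosolic HSP90 gene family, had 6.94 and 16.2 RPKM in IP Tg against 1.96 and 0.379 in input Tg, with 10.2 and 8.26 in IP DMSO against 1.74 and 0.0624 in input DMSO. IP exceeded input without overlap, by 2.53 ± 0.61 in Tg (adjusted p = 0.00141) and 2.58 ± 0.61 in DMSO (adjusted p = 0.00144). HNRNPUP1, a copy of HNRNPU, had 12.6 and 10.3 RPKM in IP Tg against 1.18 and 0 in input Tg, with 10.3 and 2.84 in IP DMSO against 5.91 and 0 in input DMSO. IP and input overlapped in DMSO but not in Tg. The difference was 3.07 ± 0.61 in Tg (adjusted p = 4.43e-05) and 1.32 ± 0.61 in DMSO, which did not pass (adjusted p = 0.0883). RPS18P12, a copy of RPS18, differed by −1.27 ± 0.67 in Tg, which did not pass (adjusted p = 0.154), and by −1.89 ± 0.67 in DMSO (adjusted p = 0.0292). HSP90AA2P lost its DMSO call without IP DMSO replicate 2 or input DMSO replicate 2 and with libraries centred. Its Tg call was lost without IP Tg replicate 2, among other settings. HNRNPUP1 lost its Tg call without IP Tg replicate 2 or input Tg replicate 1. RPS18P12 lost its call without any 1 of IP DMSO replicate 2, input DMSO replicate 2 or the 4 Tg libraries.

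RPL4P4, with 4 common sites, did not pass in either treatment. It had 139 and 102 RPKM in IP Tg against 82.9 and 58.3 in input Tg, with 224 and 48.9 in IP DMSO against 143 and 28.6 in input DMSO. IP was above input within each pair of libraries. The differences were 0.77 ± 0.62 in Tg (adjusted p = 0.359) and 0.70 ± 0.62 in DMSO (adjusted p = 0.383).

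The libraries of the whole series differed in depth and makeup. Subunit-Seq libraries held 5102476 to 16856142 reads. Mitochondrial ribosomal RNA took 0.286% to 0.705% of reads in IP libraries and 4.64% to 20.4% in inputs. Of the HEK293T markers, NEFM, NEFL and LIN28B averaged 23.9, 25.8 and 3.01 RPKM, while PAX2 and LHX1 were below 0.1 RPKM on average. Of 5 markers of other cell types, PTPRC was at 0 in every RNA-Seq library, ALB, MYH6 and GFAP averaged under 0.1 RPKM, and COL1A1 ranged from 0.0904 to 19.0.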

How the data were processed

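The deposited m6A site lists gave chromosome, start, end and strand, 1 list for each genotype and treatment. The site caller, its filters and the gene counter are not given in the sources used here. GRCh38, cutadapt, STAR, BWA and DESeq2 stand in the submitters' processing notes without a role. The expression values were RPKM that the authors deposited, per library, for 58721 genes, with replicates 1 and 2 of Subunit-Seq in separate tables. The members and gene lists were chosen with earlier results of these data known.

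Sites were matched to RefSeq gene spans and promoter windows (GRCh38.p14), and positions are those of the modified base counted from 1. A parent was the gene whose symbol, followed by P and a number, gave the pseudogene's. Contrasts used limma 3.58.1 in R 4.3.3 with a mean-variance trend on log2(RPKM + 1), so that fold changes of low genes are understated, and with Benjamini-Hochberg adjustment at 0.05. Genes needed a mean of 1 RPKM over the 8 RNA-Seq libraries or over the 4 Subunit-Seq inputs. Subunit-Seq was fitted with the replicate number as a block. There limma estimated an infinite prior, so that SEs rest on the spread pooled over genes of like level. RNA-Seq was fitted without a block. Replicate differences correlated between the RNA-Seq groups other than DD Tg (r 0.74 to 0.86), so the numbers pair those samples. The main RNA-Seq fit left this pairing out, and the block was run as an alternative. Between DD Tg and the other RNA-Seq groups r was 0.134 to 0.3, and in Subunit-Seq r was 0.0019 to 0.51. The scripts were tested on simulated data.

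Whole reads could be recovered from the RPKM for 26179 of 26179 genes above 0 in at least 3 libraries, within 0.02 of a whole number, and gave the depths printed. Alternatives were a pseudocount of 0.1, no filter, libraries centred on their medians, the block added or dropped, each library left out, strand ignored and other matching distances. Named genes were the 12 with most common sites, per contrast the 3 highest and 3 lowest called genes with a common site and called parents (mean at least 5 RPKM, no overlap within a replicate number), list members with a common site, and METTL3, METTL14, WTAP, FTO, ALKBH5 and EIF3D. Other genes were named after their values were seen. Results for a few genes are not reported here.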

Additional observations from a re-analysis of the deposited data

Results flagged for a closer look

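In 3 named genes the RNA-Seq difference of Tg minus DMSO had one sign in both DD replicates and the other in both WT replicates, on the log2(RPKM + 1) scale. For H2BC7 it was 0.05 and 1.20 in DD and −0.10 and −0.44 in WT cells, which makes a mean difference of 0.90 between genotypes. For RPL4P4 it was −0.01 and −0.29 in DD and 0.27 and 0.81 in WT cells, a mean difference of −0.69. For XRCC6P2 it was 0.17 and 0.07 in DD and −0.13 and −0.40 in WT cells, a mean difference of 0.39. Some of these differences were slight, such as 0.05 for H2BC7 and −0.01 for RPL4P4. The share of all genes with such a sign pattern is not given here. With 2 replicates per genotype the pattern can easily arise without any effect, so it marks nothing particular to these 3. Limma's interaction term passed for 0 of the 198 genes with a common site, these 3 included.

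Outside the nuclear genome, 373 mitochondrial sites stood in all 4 lists, beside the 384 nuclear ones.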

How the results depend on the processing

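In RNA-Seq, 0 genes with a common site and 0 parents passed in each contrast under every alternative run, the replicate block included, and so did the change of IP minus input with Tg and the input contrast in Subunit-Seq. The IP minus input counts depended on the settings. Among genes with a common site, the 24 calls in Tg became 0 with no filter, 1 with no replicate block, 12 with a pseudocount of 0.1 and 14 with only genes of known own strand, and 2 to 36 with 1 library left out. Their 32 calls in DMSO became 20 with libraries centred, 0 with no filter, 0 with no replicate block, 19 with a pseudocount of 0.1, and 0 to 50 with 1 library left out. Among parents, the 30 calls in Tg became 0 with no filter, 0 with no replicate block, 15 with a pseudocount of 0.1, and 0 to 32 with 1 library left out. Their 37 calls in DMSO became 21 with libraries centred, 0 with no filter, 0 with no replicate block, 21 with a pseudocount of 0.1, and 0 to 33 with 1 library left out. Without both replicate 2 libraries of DMSO, 0 passed in either set in DMSO. The limit to genes of known strand and the removal of that pair were chosen after seeing the data. The cause of these changes was not tested. For single named genes, 110 settings lost the call, 150 kept it and 0 turned the direction.

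Site lists carry no depth, so a site missing from a list cannot be told apart from one not detected. With 2 libraries per group, and pseudogenes that resemble their parents, single levels are uncertain.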
